A study of Mus musculus with 9 samples.

Results

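The genes described here are 8 genes that activate, inactivate, import, bind or respond to thyroid hormone: Dio2, Dio3, Thra, Thrb, Slco1c1, Hr, Klf9 and Crym. They were taken from 22180 genes measured with a probe set of a single gene symbol, and all 8 were measured. For each gene with several probe sets, the one with the highest mean over 9 arrays was used. The set was assembled because Dio2 had read low after ketamine on these same arrays, so the ketamine and saline values below are a description of that choice and carry no test.

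Transcripts were measured on 9 Affymetrix arrays of microdissected anterior cingulate cortex, taken between 1.34 and -0.5 mm from bregma, from C57BL/6J mice, an inbred laboratory strain. Mice of the ketamine group (KT, 3 arrays) received 3 mg/kg of ketamine, a blocker of NMDA-type glutamate receptors, by intraperitoneal injection at ZT5, that is 5 h after lights-on. Mice of the sleep deprivation group (SD, 3 arrays) were kept awake for 12 h from ZT0 by a slowly rotating bar, with no injection named in their labels. Mice of the control group (3 arrays) received saline by the same route at ZT5. Tissue of all groups was collected at ZT13, which is 8 h after the injections and 1 h after the end of sleep deprivation, and the labels give no transgene or allele for any group. The titles call the arrays biological replicates without saying that each is 1 mouse, so tests measure the spread between these samples.

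Thyroid hormone reaches the brain mainly as thyroxine, a prohormone that transporters carry across brain capillaries and into glia. In the cortex, the type 2 deiodinase of astrocytes converts thyroxine to triiodothyronine, which binds nuclear receptors in neurons and changes transcription of target genes. The type 3 deiodinase, found mainly in neurons, inactivates both forms, so the local hormone signal depends on the balance of the enzymes as well as on supply from blood.

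Array medians lay between 97.7 and 106.2 intensity units, and within groups r between arrays was 0.986 to 0.995 over genes on the log2 scale. Markers of the tissue were present on every array: Slc17a7, the vesicular glutamate transporter of cortical excitatory neurons, read 2811, 2965 and 2847 on KT arrays, 2700, 2840 and 2693 on SD arrays and 2795, 2691 and 2900 on saline arrays. Markers of choroid plexus, a secretory tissue inside the ventricles, were uneven in their sum. Their summed intensity over 7 measured genes of 8 listed was 799 to 1109 on KT arrays and 602 to 1099 on SD arrays. On saline arrays it was 731 to 9608, the highest being saline arrays 1 and 2. Most of those highest sums came from 1 gene, Ttr, which gave 1624 of 2271 on saline array 1 and 8428 of 9608 on saline array 2. In the limma fit with Benjamini-Hochberg adjustment, 0 of 22180 genes passed an adjusted p of 0.05 in any of the 3 comparisons. At an unadjusted p under 0.05 there were 1013 genes (4.57%) for KT against saline, 781 for SD against saline and 2103 for KT against SD.

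Dio2 encodes the type 2 deiodinase, the enzyme that makes active hormone. Its intensity was 544, 461 and 445 on KT arrays, 662, 699 and 625 on SD arrays and 688, 740 and 598 on saline arrays. Every KT array lay below every array of both other groups, while SD and saline arrays overlapped. The KT mean was 483 ± 53.4 against 675 ± 71.8 for saline (standard deviation, n = 3 each, as for later means), that is 71.5% of the saline mean, and the difference of log2(intensity + 16) was -0.47 ± 0.11 (SE). Less RNA per cell and fewer cells of the type that makes it cannot be told apart in dissected tissue.

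A further Dio2 probe set, dimmer than the one used, gave 72.2, 51.4 and 46.3 on KT arrays, 68.1, 67.6 and 61.5 on SD arrays and 72.5, 85.3 and 73.4 on saline arrays. Its KT arrays again lay below all saline arrays, the closest pair being 72.2 and 72.5, and its difference was -0.37 ± 0.12. Its KT and SD arrays overlapped, KT array 1 lying above all SD arrays, and the KT minus SD difference was -0.19 ± 0.12. Unlike the brighter probe set, it had all SD arrays below all saline arrays (difference -0.19 ± 0.12), with an adjusted p of 1.0 in limma over all single-gene probe sets. The probe sets thus placed the SD group differently, near saline by the brighter one and between KT and saline by the dimmer one.

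**Figure D1:**
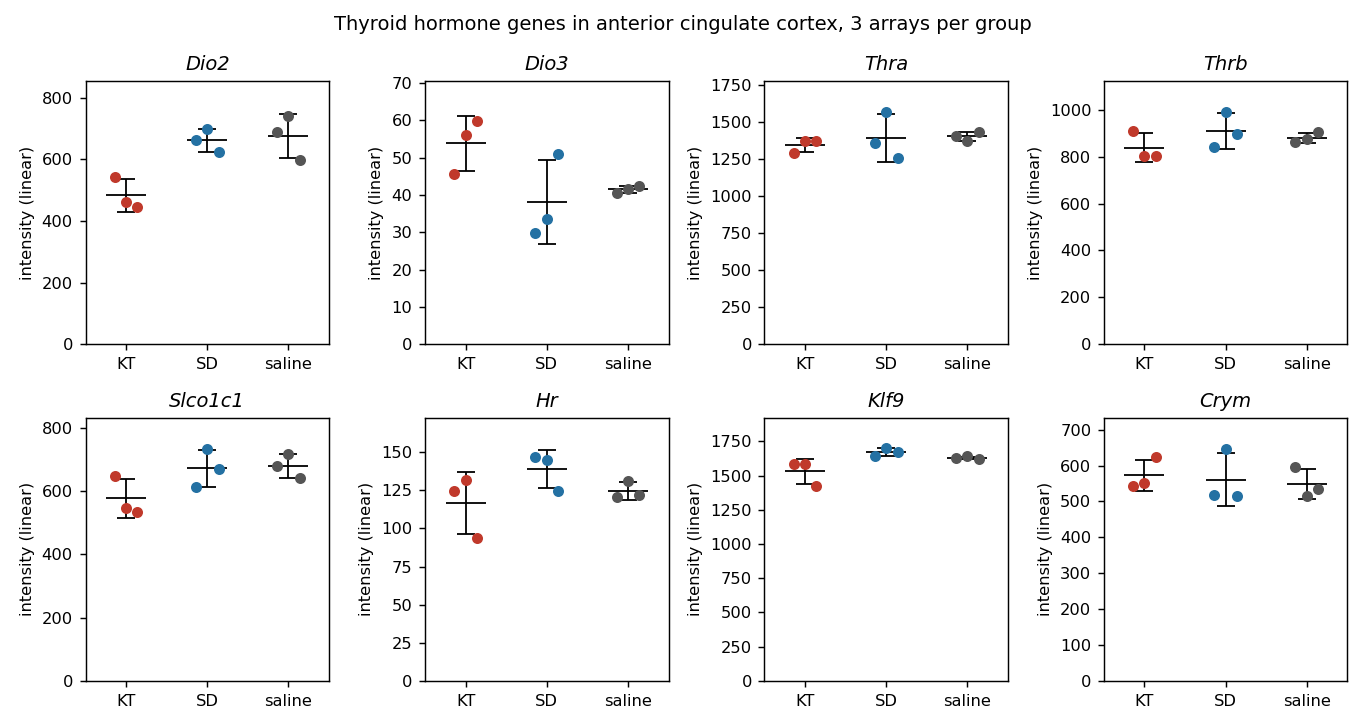
Intensity of the 8 genes on each array (linear scale from 0), with KT, SD and saline groups from left to right; points are arrays, and bars give the mean and standard deviation of 3 arrays. Dio2 sits at 445 to 544 on KT arrays, below the 598 to 740 of saline arrays, and Dio3 at 45.5 to 59.9 on KT arrays, above the 40.5 to 42.3 of saline arrays.

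The Dio2 gene is known from work on the human and rodent promoters as a target of cyclic AMP, through a response element bound by CREB-family factors. Upstream sequences are shown for the 3 genes of the set with the largest distance between KT and saline, Dio2, Slco1c1 and Dio3. They are RefSeq promoter windows of build GRCm38.p6, limited to the 250 bases before the annotated start, read 5′ to 3′ on the gene's strand. The windows lie at chr12:90739039-90739288 on the minus strand for Dio2, chr6:141524104-141524353 on the plus strand for Slco1c1 and chr12:110278980-110279229 on the plus strand for Dio3. Capitals mark a match to any of the motifs searched.
Dio2: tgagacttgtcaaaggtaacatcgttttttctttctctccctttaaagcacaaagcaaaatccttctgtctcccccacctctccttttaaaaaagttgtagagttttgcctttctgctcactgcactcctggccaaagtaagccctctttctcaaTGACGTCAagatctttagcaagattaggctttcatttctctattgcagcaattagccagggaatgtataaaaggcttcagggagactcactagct
Slco1c1: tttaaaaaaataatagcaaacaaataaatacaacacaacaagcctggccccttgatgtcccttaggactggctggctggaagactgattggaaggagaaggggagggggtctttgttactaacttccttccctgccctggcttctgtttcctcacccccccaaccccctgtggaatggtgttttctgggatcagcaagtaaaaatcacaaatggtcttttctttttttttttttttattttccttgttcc
Dio3: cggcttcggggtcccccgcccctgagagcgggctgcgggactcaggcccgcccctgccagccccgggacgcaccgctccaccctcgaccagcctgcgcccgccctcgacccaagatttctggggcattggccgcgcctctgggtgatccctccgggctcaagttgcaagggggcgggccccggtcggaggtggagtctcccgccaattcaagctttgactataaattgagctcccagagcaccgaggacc
Both strands of the 300-base windows, which run to 50 bases after the start, were searched for the cyclic AMP response element TGACGTCA, the nuclear receptor half-site AGGTCA, the thyroid hormone response element form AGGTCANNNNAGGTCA, which contains the half-site, and the E-box CACGTG. The capitals in the Dio2 window are TGACGTCA, whose first base is at position -95 from the start site, at chr12:90739126-90739133. That motif occurs in 1.79% of all 32851 promoter windows of the table. AGGTCA was found in 1 of 2 windows of Thrb, at position -184, and in 16.3% of all windows. CACGTG was found in the other Thrb window, at position -193, and in Slco1c1 at position 20 after the start, beyond the bases shown, and it occurs in 7.15% of all windows. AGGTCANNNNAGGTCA was in none of the members' windows, 0 matches, and in 0.0152% of all. Of the 8 genes 5 matched the table, namely Dio2, Dio3, Thrb, Slco1c1 and Klf9. A match of letters is a description and not evidence of a bound site.

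Dio3 encodes the type 3 deiodinase, which inactivates the hormone. It was dim, brighter than only 13.8% of genes by its mean. It read 45.5, 56.0 and 59.9 on KT arrays, 29.9, 33.6 and 50.9 on SD arrays and 40.5, 41.5 and 42.3 on saline arrays. All KT arrays lay above all saline arrays, and the SD arrays overlapped both groups. The KT mean of 53.8 ± 7.45 was 129.6% of the saline mean of 41.5 ± 0.89, with a log2 difference of 0.28 ± 0.13, a value the offset of 16 damps in so dim a gene. Dio3 and Dio2 were therefore displaced in opposite directions on KT arrays. Dio3os, the non-coding neighbour of Dio3, read 76.9, 92.4 and 102.8 on KT arrays, 95.1, 68.5 and 77.4 on SD arrays and 77.5, 89.4 and 84.7 on saline arrays, and its 3 groups overlapped.

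Slco1c1 encodes an organic anion transporter that carries thyroxine across the blood-brain barrier and is made by brain endothelial cells and astrocytes in rodents. Its intensity was 649, 548 and 535 on KT arrays, 614, 732 and 670 on SD arrays and 678, 718 and 643 on saline arrays. KT arrays 2 and 3 lay below all saline arrays, while KT array 1 lay inside their range. The KT mean of 577 ± 62.6 was 84.9% of the saline mean of 680 ± 37.7, and the log2 difference was -0.23 ± 0.11. Without KT array 1 it was -0.32 and without KT array 3 it was -0.18, the largest and smallest distances from 0 reached when single arrays were left out. With quantile normalization it was -0.16.

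Markers of the cells that make Dio2 and Slco1c1 were set beside these genes, array by array. The summed intensity of 11 endothelial markers was 4556, 4081 and 3972 on KT arrays, 4663, 4821 and 4759 on SD arrays and 4777, 4237 and 4450 on saline arrays. KT arrays 2 and 3 were the lowest of all 9, and KT array 1 lay within the saline range. All but 1 of these markers had a lower mean on KT than on saline arrays, with a median log2 difference of -0.11. The sum of 11 astrocyte markers was 16801, 15800 and 15099 on KT arrays, 15263, 17438 and 16332 on SD arrays and 16925, 15711 and 16774 on saline arrays, and the groups overlapped. KT array 3 and SD array 1 lay below the saline range, while Dio2 on SD array 1 stood at 98.0% of the saline mean. Each of the 11 astrocyte markers had a lower mean on KT than on saline arrays. Differences ran from -0.16 to -0.0040, with a median of -0.066. Of all 22180 genes, 12116 had a lower mean. The median was -0.041 over the 14787 genes left without the dimmest ones. Groups were apart for 0 of the 11 markers of each list, against 14.4% of all genes. On KT arrays the astrocyte sum stood at 91.7% to 102.0% of the saline mean and the endothelial sum at 88.5% to 101.5%, while Dio2 stood at 65.8% to 80.6%. Markers of striatal projection neurons, cells of the neighbouring striatum, summed over 6 measured genes of 9 listed, stood at 107.5%, 90.2% and 84.4% on KT arrays 1 to 3, with sums of 1375 to 1752 on KT arrays and 1551 to 1680 on saline arrays. Choroid plexus markers summed to 2271, 9608 and 731 on saline arrays 1 to 3. Slco1c1 and Dio2 were highest on saline array 2 and lowest on saline array 3. On SD arrays 1 to 3 the choroid plexus sums were 659, 602 and 1099, and both genes were highest on SD array 2. Without saline array 2 the KT minus saline difference was -0.19 for Slco1c1 and -0.40 for Dio2. The part of these cell types in the Dio2 and Slco1c1 values was not tested.

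**Figure D2:**
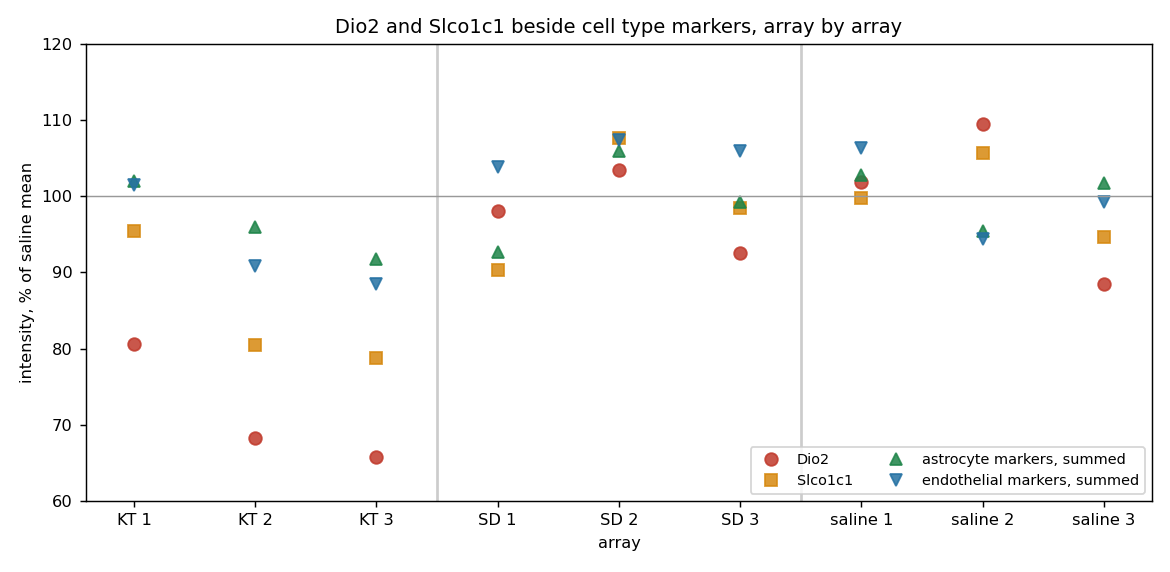
Intensity on each array as a percent of the saline mean for Dio2, Slco1c1 and the summed astrocyte and endothelial markers (11 genes each), with KT arrays left, SD arrays in the middle and saline arrays right. Dio2 lies at 65.8% to 80.6% on KT arrays, below both marker sums of each KT array, and Slco1c1 at 78.7% to 95.5%.

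The nuclear receptor genes overlapped between groups in every comparison. Thra, whose main receptor isoform is the most abundant thyroid hormone receptor of brain, read 1293, 1375.5 and 1374 on KT arrays, 1358, 1571 and 1256 on SD arrays and 1407, 1374 and 1436 on saline arrays, and the groups overlapped. Its differences were -0.061 ± 0.098 for KT minus saline and -0.017 ± 0.098 for SD minus saline, both inside the standard error. The 3' end of Thra overlaps the clock gene Nr1d1 on the opposite strand. Nr1d1 read 1446.5, 1502 and 1657 on KT arrays, 1420, 1353 and 1286 on SD arrays and 1315, 1352 and 1569 on saline arrays, with KT arrays all above SD arrays. Whether either probe set reads the other strand was not tested. Thrb, the other receptor gene, read 908, 803 and 804 on KT arrays, 841, 992 and 897 on SD arrays and 861, 876 and 905 on saline arrays. Its KT and saline arrays overlapped, with a difference of -0.071 ± 0.095 and a 95% interval from -0.28 to 0.13. For Thra the KT minus saline interval was -0.27 to 0.15, so the values do not show that either gene was unchanged.

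Hr and Klf9 are direct targets that thyroid hormone induces in brain, encoding a nuclear receptor corepressor and a Krüppel-like transcription factor. Hr read 125, 132 and 93.6 on KT arrays, 147, 145 and 125 on SD arrays and 121, 131 and 122 on saline arrays. KT array 3 was the lowest of all 9 and SD arrays 1 and 2 were the highest. The KT minus saline difference was -0.094 ± 0.12, and without KT array 3 it was 0.038. Klf9 read 1582, 1587 and 1425 on KT arrays, 1640, 1701 and 1674 on SD arrays and 1626, 1639 and 1622 on saline arrays. Its groups did not overlap in any comparison, with KT lowest and SD highest, yet the distances were small: the KT mean was 94.0% and the SD mean 102.6% of the saline mean. Klf9 is also induced by glucocorticoids. Crym, which encodes a cytosolic protein that binds triiodothyronine, read 543, 553 and 623 on KT arrays, 518, 647 and 517 on SD arrays and 597, 515 and 534 on saline arrays, and the 3 groups overlapped.

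Over the set, 6 of 8 genes had a lower mean on KT than on saline arrays and 2 a higher one, Dio3 and Crym. Of all 22180 genes, 12116 had a lower mean. The median difference was -0.080 for the set and -0.015 over all genes, but -0.041 over the 14787 genes left without the dimmest ones. KT and saline arrays did not overlap for 3 of the 8, Dio2 and Klf9 lower and Dio3 higher, while this held for 14.4% of all genes in this comparison. The share for lower was 7.89% and for higher 6.48%. Since Dio2 was chosen on this comparison, nothing is read from these counts. In the order of means, KT was lowest for 6 genes, all but Dio3 and Crym, and highest for those.

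**Figure D3:**
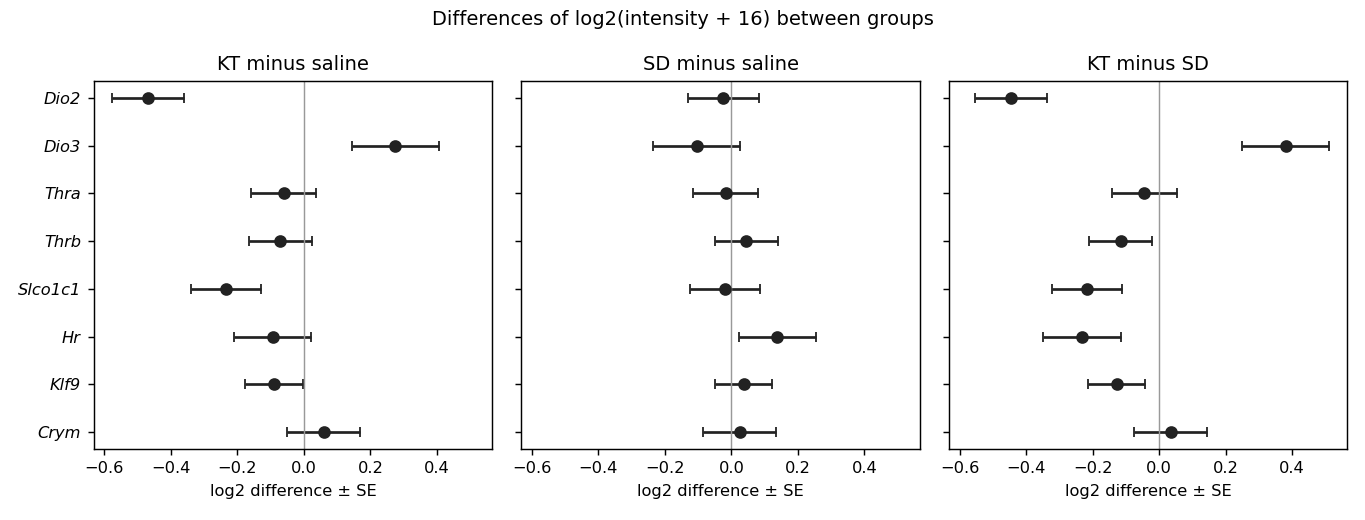
Differences of log2(intensity + 16) ± SE for the 8 genes, from the limma fit with 3 arrays per group, for KT minus saline (left), SD minus saline (middle) and KT minus SD (right). Dio2 lies at -0.47 and -0.45 in the comparisons that hold KT, and at -0.024 for SD minus saline.

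After sleep deprivation 0 of the 8 genes passed limma's test, 4 means being higher than saline and 4 lower, with a median of 0.0040 beside -0.0088 over all genes. All 8 had an adjusted p of 1.0 over 22180 genes, and 0 had an unadjusted p under 0.05, against 3.52% of all genes. Dio2 had a difference of -0.024 ± 0.11, with a 95% interval from -0.26 to 0.21. For Dio3 the difference was -0.11 ± 0.13 (interval -0.39 to 0.18), with SD array 3 at 50.9 above all saline arrays and the other SD arrays below them. Hr had the largest distance from 0, at 0.14 ± 0.12 (interval -0.11 to 0.39). Slco1c1 stood at -0.019 ± 0.11, Thrb at 0.044 ± 0.095, Klf9 at 0.037 ± 0.086 and Crym at 0.025 ± 0.11. Only Klf9 had groups that did not overlap, 1 of 8, against 7.11% of all genes. For each of the 8 genes the interval reached past 0.2 in at least 1 direction, so a change of that size was not excluded there. The labels name an injection for saline and not for SD mice, so any effect of the injection cannot be told apart from that of wakefulness.

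KT and SD arrays were also set against each other, a comparison that shares the KT arrays on which Dio2 was chosen. Dio2 is therefore given without a test, at -0.45 ± 0.11, with all KT arrays below all SD arrays. By its dimmer probe set the difference was -0.19 ± 0.12 and the KT and SD arrays overlapped. None of the other 7 genes passed limma's test, their adjusted p lying between 0.45 and 0.918 over all genes, and Dio3 alone had an unadjusted p under 0.05 (9.48% of all genes had). Dio3 had a difference of 0.38 ± 0.13 (unadjusted p = 0.0119, adjusted p = 0.45), with KT arrays at 45.5 to 59.9 and SD arrays at 29.9 to 50.9. Without SD array 3 its difference was 0.54 and its limma adjusted p 0.0413. Beside that, 214 of 22180 genes were called when SD array 3 was left out, and the Dio3 difference was 0.27 without SD array 1 and 0.21 with an offset of 64. Hr stood at -0.23 ± 0.12 (adjusted p = 0.547), Slco1c1 at -0.22 ± 0.11 (0.541), Klf9 at -0.13 ± 0.086 (0.618), Thrb at -0.12 ± 0.095 (0.67), Thra at -0.044 ± 0.098 (0.879) and Crym at 0.035 ± 0.11 (0.918). Of the 8 genes, 2 had groups that did not overlap, Dio2 and Klf9, against 10.1% of all genes. Endothelial markers stood lower on KT than on SD arrays: 10 of 11 had a lower mean, the median difference was -0.24, 7 had an unadjusted p under 0.05 and 0 passed adjustment in limma, and their sum was 3972 to 4556 on KT arrays, below the 4663 to 4821 of SD arrays. For astrocyte markers 9 of 11 had a lower mean, with a median of -0.034. Of all 22180 genes, 11749 had a lower mean on KT than on SD arrays. The median was -0.041 over the 14787 genes left without the dimmest ones. The part of these cells in the Dio2 and Slco1c1 differences between KT and SD was not tested.

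Other genes of the pathway were taken from 5 lists of 78 textbook genes, of which 67 were measured. Among these, 22 had a higher and 45 a lower mean on KT than on saline arrays (median -0.040), and 38 were higher and 29 lower after sleep deprivation (median 0.012). Of all 22180 genes, the base for each list below, 12116 were lower for KT (median -0.015) and 11847 for SD (median -0.0088). Over the 14787 genes left without the dimmest ones the KT median was -0.041, near that of the lists. In limma 0 of the 67 passed an adjusted p of 0.05 in any comparison, where 2, 3 and 7 had an unadjusted p under 0.05 for KT against saline, SD against saline and KT against SD. Groups did not overlap for 5 of 67 on KT against saline, 10 on SD against saline and 7 on KT against SD, beside 14.4%, 7.11% and 10.1% of all genes. Most list genes named below were picked because their groups were apart in a comparison, so that separation is set by the choice.

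The transport and binding list had 8 measured genes. Alb, which encodes the carrier albumin, stood at 0.11 for KT minus saline, -0.16 for SD minus saline and 0.27 ± 0.13 for KT minus SD, with groups that overlapped. The amino acid transporter genes Slc7a5 and Slc7a8, whose proteins also carry thyroid hormone, stood at -0.015 and 0.084 for KT minus saline and at -0.013 and 0.012 for SD minus saline. Slco1a4, an endothelial transporter gene, stood at 0.020 and 0.034 in the same comparisons. Ttr encodes transthyretin, the thyroxine carrier that the choroid plexus secretes. It read 207, 467 and 139 on KT arrays, 89.5, 104 and 428 on SD arrays and 1624, 8428 and 110 on saline arrays. Saline arrays 1 and 2 were the highest, followed by KT array 2 and SD array 3. These 4 arrays also had the highest choroid plexus marker sums, but Ttr is itself in that list. Ttr made up 1624 of 2271 on saline array 1 and 8428 of 9608 on saline array 2. It made up 467 of 1109 on KT array 2 and 428 of 1099 on SD array 3. The match is therefore not a separate observation.

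Genes of the deiodinase family and of the control of its proteins had medians of -0.017 for KT and 0.023 for SD against saline. Groups were apart for 0 of 9 genes with KT, where 14.4% of all genes were, and for 2 of 9 with SD, where 7.11% were. Marchf6, a ubiquitin ligase gene of the endoplasmic reticulum that takes part in degrading the type 2 deiodinase, read 1634, 1550 and 1516 on KT arrays, 1590, 1586 and 1484 on SD arrays and 1625, 1627 and 1725.5 on saline arrays. All SD arrays lay below all saline arrays, at a difference of -0.094 ± 0.087. Usp33, which encodes an enzyme that removes ubiquitin from that deiodinase, read 1122, 1114 and 1036 on KT arrays, 1174, 1185 and 1141 on SD arrays and 1116, 1109 and 1086 on saline arrays, with SD highest (SD minus saline 0.079 ± 0.085).

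Receptor partners and coregulators had 12 of 16 lower means for KT (median -0.058) and 11 of 16 higher means for SD (median 0.032). Against saline, groups were apart for 1 of 16 with KT, where 14.4% of all genes were. With SD, 1 gene was apart higher and 1 lower, where 7.11% of all genes were apart. Tbl1xr1, a subunit gene of the corepressor complex, was at -0.20 ± 0.10 for KT and -0.15 ± 0.10 for SD against saline, with SD arrays all below saline arrays. Rxrg, a retinoid X receptor gene whose protein pairs with thyroid hormone receptors, was dim, at 61.0, 68.1 and 63.1 on KT arrays, 66.1, 67.1 and 69.2 on SD arrays and 60.7, 61.1 and 53.3 on saline arrays. Its SD arrays all lay above the saline arrays (0.17 ± 0.089). Carm1, a coactivator methyltransferase gene, was higher on all KT than on all saline arrays, at 0.092 ± 0.090.

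Among 23 other hormone-responsive genes, 18 had a lower mean for KT (median -0.047) and 14 for SD (median -0.021). Dbp, a clock-driven transcription factor gene listed as hormone-responsive, read 1094, 1084 and 1146 on KT arrays, 829.5, 971 and 746 on SD arrays and 1103, 1028 and 1159 on saline arrays. Its SD arrays lay below all others, at -0.37 ± 0.11 against saline (adjusted p = 1.0 in limma). Sult1a1, a sulfotransferase gene, was higher on SD arrays, at 191, 218 and 192, against 171, 143 and 148 on KT arrays and 172, 142 and 158 on saline arrays (SD minus saline 0.32 ± 0.10, adjusted p = 1.0). Both genes also stand among clock or glucocorticoid targets. Mag, a myelin gene, ran from 246 to 578 on KT arrays, 255 to 362 on SD arrays and 363 to 411 on saline arrays, and its KT value depended on single arrays, being -0.27 without KT array 2 and 0.32 without KT array 3. Nefm, a neurofilament gene, was lower on KT than on SD arrays, at -0.45 ± 0.14 (adjusted p = 0.396), and -0.28 without KT array 3. Bcl3, a nuclear factor-kappa-B cofactor gene, was higher on all KT than on all saline arrays, at 0.27 ± 0.12.

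Of 11 measured genes of the cyclic AMP and CREB list, 7 had a lower mean for KT (median -0.049) and 9 a higher mean for SD (median 0.054). Crem, which encodes CREB-family factors including inducible repressor forms, read 149, 143 and 129 on KT arrays, 163, 195 and 174 on SD arrays and 162, 161 and 156 on saline arrays. Its KT arrays lay below all saline arrays and its SD arrays above them, with differences of -0.17 ± 0.095 and 0.13 ± 0.095. Sik1, a kinase gene that CREB induces, read 404, 358 and 400 on KT arrays, 564, 638 and 450 on SD arrays and 493, 591 and 495 on saline arrays. Its KT arrays were below every other array, at -0.42 ± 0.12 against saline. Creb1 itself stood at -0.047 for KT and 0.066 for SD, and the coactivator gene Crtc2 at 0.11 ± 0.096 for KT, with KT arrays above saline arrays.

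**Figure D4:**
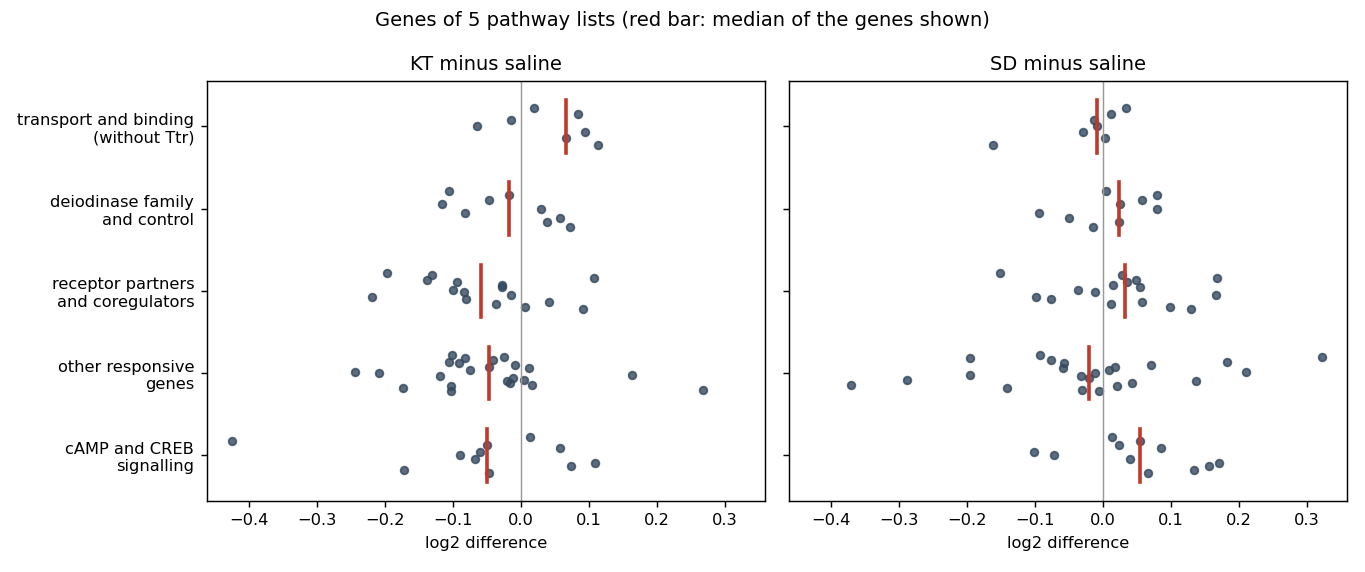
Log2 differences of the measured genes of 5 pathway lists for KT minus saline (left) and SD minus saline (right); each point is a gene and red bars are medians of the genes shown. Ttr, at -2.24 and -2.76, is left out so that the axis shows the others, of which Sik1 lies lowest for KT at -0.42 and Dbp lowest for SD at -0.37.

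Genes whose pattern was most like that of Dio2 were found by Pearson's r of log2 values over the 9 arrays, among 11089 other genes at or above the median intensity. The first 5 were Chchd7 (r = 0.971), Ap5s1 (0.965), Snx27 (0.965), Frmd6 (0.964) and Sltm (0.963). They encode a mitochondrial CHCH-domain protein, an adaptor complex subunit, an endosomal sorting nexin, a FERM-domain protein and an RNA-binding transcription modulator. Spearman's rho was 0.933 to 0.983 for these 5, and without KT arrays 2 and 3, the farthest from the Dio2 median, r was 0.869 to 0.953. Of the set's own genes, Thra, Thrb, Slco1c1, Klf9 and Crym were bright enough to be ranked, and Hr and Dio3 were not. Slco1c1 came nearest of those ranked, at rank 69 (r = 0.902, rho = 0.867), where r was 0.605 without those arrays. Klf9 followed at rank 707 (r = 0.791). The arrays share groups, so these values describe the pattern and carry no p. Frmd6 read 451, 418 and 380 on KT arrays, 516.5, 581 and 489 on SD arrays and 520, 611 and 493 on saline arrays. Its KT arrays lay below both other groups, as for Dio2. Genes picked for a high r with Dio2 share its placing of KT through that choice, so it is not a separate observation. The rho values and the r without KT arrays 2 and 3 come from the same arrays.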

How the data were processed

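RNA of 9 tissue samples was hybridised to 9 Affymetrix arrays. The submitters' processing notes name PLIER 2.0, a method that summarises the probes of each set, and Affymetrix Expression Console 1.1.1. The authors deposited linear intensity values for 41345 probe sets. How background was corrected and arrays were normalized is not stated in these sources. The log2 values were computed here from the authors' deposited intensities, as log2(intensity + 16), which damps changes of dim genes.

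Names came from the platform annotation, updated through gene identifiers. Of the probe sets, 23521 had 1 gene, 1814 several and 16010 none, and 23328 of the first matched RefSeq. The brightest probe set per gene gave 22180 genes. Of the 78 pathway list genes, 67 were measured and 11 are not analysed here.

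All 9 arrays entered 1 limma 3.58.1 fit in R 4.3.3 (lmFit, contrasts.fit, eBayes) without covariates, with Benjamini-Hochberg adjustment over all genes at 0.05, and the fit was tested on simulated data. Errors of differences are the fit's SE and intervals are its 95% intervals. The number of arrays limits the precision. Labels name no scan batch.

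The 8 genes and the lists were chosen with earlier results of these data known. Named beside them were, per pathway list and comparison, up to 3 genes of the largest difference among those with groups apart, Nr1d1 and Dio3os, and the 5 genes most like Dio2. Values of Slc17a7, Ttr, Alb, Creb1, Slc7a5, Slc7a8 and Slco1a4 and marker sums were added for context, some chosen after their values were seen. Alternatives covered normalization, centring, dim genes, offsets of 1 and 64, probe set choice, limma-trend, array weights, arrays in the fit, a replicate block and each array left out.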

Additional observations from a re-analysis of the deposited data

How the results depend on the processing

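The difference of Dio2 between KT and saline lay between -0.56 and -0.40 over 20 alternatives and that of Slco1c1 between -0.32 and -0.16. That of Dio3 lay between 0.16 and 0.36 over 19, since it was removed with the dimmest genes. Of 477 values of the 8 genes under alternatives, 460 kept their direction and side of the threshold or stayed within 1 standard deviation, and 1 passed the threshold, Dio3 for KT minus SD without SD array 3 (adjusted p = 0.0413). Hr for KT minus saline stood at 0.057 with array weights. The count of genes called over all genes for KT minus saline was 0, and 1439 with array weights, in which KT array 2 had a weight of 7.92 and each other array 0.35 to 2.08. For SD minus saline it was 0, 1 after median centring, 3 with limma-trend, and 0 to 4 with single arrays left out (4 without SD array 2). For KT minus SD it was 0, 5 without the dimmest genes, 14 with an offset of 64, 15 with limma-trend, 42 with array weights, and 0 to 214 with single arrays left out (214 without SD array 3). The cause was not tested. Small differences turned their sign. For SD minus saline, Dio2 stood at 0.0090 and Crym at -0.017 with array weights. With single arrays left out, Dio2 ran from -0.11 to 0.043, Dio3 from -0.27 to 0.0040, Thra from -0.10 to 0.055, Thrb from -0.018 to 0.098, Slco1c1 from -0.081 to 0.044 and Crym from -0.079 to 0.086, and for KT minus SD, Thra ran from -0.12 to 0.044 and Crym from -0.025 to 0.14. With the replicate block 0 genes were called in each comparison. Same-numbered arrays had correlations of deviations from -0.20 to 0.44, over 0.1 in 2 of 9 pairs, the highest being KT array 3 with SD array 3. They matched best with their own number in 9 of 18 cases. With 3 arrays per group, these values cannot show whether same-numbered samples were paired or handled together.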

Other observations

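The KT arrays differed among themselves in the same order for 3 of the 8 genes. KT array 1 was nearest to the saline mean and KT array 3 farthest for Dio2 (80.6%, 68.2% and 65.8% of the saline mean on KT arrays 1 to 3), Slco1c1 (95.5%, 80.5% and 78.7%) and Dio3 (109.8%, 135.2% and 144.5%). The other 5 did not follow it: Thra stood at 92.0%, 97.8% and 97.7%, Thrb at 103.2%, 91.2% and 91.3%, Hr at 100.1%, 106.0% and 75.2%, Klf9 at 97.1%, 97.4% and 87.5% and Crym at 98.9%, 100.7% and 113.6%. The endothelial marker sum stood at 101.5%, 90.9% and 88.5% and the astrocyte marker sum at 102.0%, 95.9% and 91.7% on those arrays. Markers of excitatory neurons, summed over 5 genes, stood at 100.0%, 99.6% and 99.0%, and those of striatal projection neurons, summed over 6 genes, at 107.5%, 90.2% and 84.4%. Microglia marker sums stood at 100.9%, 101.9% and 93.9%. Sums of the other lists did not follow that order. Oligodendrocyte markers stood at 100.6%, 139.1% and 79.3% and cortical layer markers at 103.3%, 109.9% and 95.4%. Interneuron markers stood at 103.0%, 101.1% and 101.4% and choroid plexus markers at 19.0%, 26.4% and 19.1%. The order of 3 arrays was noticed after the values were seen.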
